A study of Mus musculus with 4 samples.

Results

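The genes examined here were 10 genes of endothelium and hemogenic endothelium: the transcription factor genes Sox7, Sox17 and Sox18, the adhesion and surface protein genes Cdh5, Pecam1, Esam and Emcn, and the receptor genes Tek, Tie1 and Eng. They are 10 of the 21938 protein-coding genes of the mouse annotation GENCODE vM21 on the assembled chromosomes of mm10. A ChIP-seq peak was assigned to a gene when its summit lay inside the gene body or within 50 kb of it, and the peaks whose nearest annotated transcription start was that of the gene were marked as the gene's own. All 4 libraries came from mouse embryonic stem cells with the genotype Tet-on dominant-negative FOS, differentiated in vitro to floating haematopoietic progenitors. In these cells Doxycycline (DOX) induces a FOS peptide that blocks AP-1. The samples are given as day 2, and the methods of the study give 2 days, but a figure legend of the study gives a later day for the RUNX1 cells. For RUNX1 there was 1 library labelled Doxycycline (labelled +DOX below) and 1 labelled None (labelled -DOX). For the repressive histone mark H3K27me3 there was 1 library titled untr and 1 titled DOX. No library had a replicate, so nothing between them could be set against a spread, no test was made, and the values are descriptions of these libraries.

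Blood cells arise in the embryo from hemogenic endothelium, a set of endothelial cells that lose their vascular program and turn into round, floating blood progenitors. RUNX1 is required for this endothelial to hematopoietic transition, during which endothelial genes are shut down and blood genes switched on. H3K27me3 is laid down by Polycomb complexes at silent developmental genes, often those of transcription factors. The SoxF factors SOX7, SOX17 and SOX18 act in endothelium and hemogenic endothelium, and they have to decline for blood cells to mature.

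The labels set limits on the comparisons. The run name inside each RUNX1 peak list gives the opposite treatment from the sample label, so every statement on direction would turn round if the labels were wrong. In the H3K27me3 libraries title and treatment contradict each other, and they are not used to compare conditions. The protocol given with these libraries names a RUNX1 antibody, so their peaks are called H3K27me3 by title only. On the assembled chromosomes the RUNX1 lists held 18389 peaks (labelled -DOX) and 21831 peaks (labelled +DOX), and the H3K27me3 lists 6356 (titled untr) and 7233 (titled DOX). The H3K27me3 peaks were narrow, with median widths of 180 bp (titled untr) and 122 bp (titled DOX). Their summits and counts give where peaks were called and not how far the mark reaches. The lists give no read totals, so the depth is unknown, and a gene without a peak has no peak past the authors' threshold rather than no binding. Strength is therefore given as fold enrichment over the local background and as -log10 q, each with its percentile within the own list. In a mixed population a peak carried by few cells and a weak peak in all cells cannot be told apart. The labelled cell type could be checked only through chromatin, since no RNA was measured. Of 12 blood genes, 5 had an own RUNX1 peak in both lists (Spi1, Tal1, Lyl1, Itga2b and Gata1, named after their values were seen), close to the 39.7% of all protein-coding genes. Another 5 (Kit, Csf1r, Itgam, Gfi1b and Coro1a) had none in either list. Of 12 regulators of other lineages, 4 (Pax6, Foxa2, Gata4 and Olig2) had RUNX1 in both lists, so RUNX1 peaks did not set the blood genes apart. An own H3K27me3 peak in both lists was found at 0 of the blood genes and 7 of the other regulators, against 10.6% of all protein-coding genes. The count of 0 among the 12 blood genes lies near that share.

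Around the 10 genes, 32 and 41 RUNX1 peaks were found in the libraries labelled -DOX and +DOX, and 10 and 8 H3K27me3 peaks in those titled untr and DOX. Most of the RUNX1 peaks, 24 and 32 of them, were nearest to the start of another gene. Among the 32 was 1 in Sox17, 79 bp from a Sox17 start. Its merged site counts as own below, because the other summit of that site is nearest to Sox17. Summits of the 2 RUNX1 lists were extended by 200 bp and merged into 43 sites, 9 of which were own sites of the genes. The reference sequence is shown at 5 own sites found in both lists, 1 per gene, since these sites carry the RUNX1 signal tied to an endothelial gene. For each gene it is the strongest such site whose higher summit is nearest to the gene's own start. It was left out if under 60 bp of it lay outside untranslated exons. For Sox17 the site in the coding exon is shown, because the higher summit of its other site is nearest to the noncoding gene Gm37587. All are on the plus strand of mm10, and the Sox7, Sox17, Cdh5 and Eng stretches cover 200 bp around the summit, at chr14:63957836-63958035, chr1:4491912-4492111, chr8:104099408-104099607 and chr2:32638054-32638253. The Tie1 stretch at chr4:118490062-118490126 is the 65 bp of its window upstream of the transcript, and the Pecam1 window is not shown because it lies almost wholly in an untranslated exon. Capitals mark matches, on either strand, to short consensus words for ETS factors (Sox7, Cdh5 and Eng), RUNX (Sox17) and SOX (Tie1).
Sox7 site: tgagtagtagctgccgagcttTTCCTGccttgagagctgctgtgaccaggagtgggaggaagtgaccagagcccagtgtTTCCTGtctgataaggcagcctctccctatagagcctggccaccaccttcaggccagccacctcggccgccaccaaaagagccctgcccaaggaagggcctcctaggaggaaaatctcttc
Sox17 site: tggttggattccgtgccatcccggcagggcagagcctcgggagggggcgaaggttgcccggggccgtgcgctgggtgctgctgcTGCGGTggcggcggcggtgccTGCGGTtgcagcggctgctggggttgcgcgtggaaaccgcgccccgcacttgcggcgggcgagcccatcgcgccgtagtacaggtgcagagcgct
Cdh5 site: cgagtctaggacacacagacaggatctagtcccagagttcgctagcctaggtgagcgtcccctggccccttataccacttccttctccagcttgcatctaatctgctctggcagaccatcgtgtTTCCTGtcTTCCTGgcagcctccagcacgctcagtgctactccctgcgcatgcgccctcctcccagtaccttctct
Tie1 site: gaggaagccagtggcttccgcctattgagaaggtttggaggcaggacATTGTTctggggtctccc
Eng site: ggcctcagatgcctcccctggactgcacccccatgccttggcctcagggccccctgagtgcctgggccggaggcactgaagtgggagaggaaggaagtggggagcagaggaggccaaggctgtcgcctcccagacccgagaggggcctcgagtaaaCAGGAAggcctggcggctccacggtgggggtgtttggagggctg

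The 3 SoxF genes all had own H3K27me3 peaks in both H3K27me3 lists, and each had one within 1500 bp of a start in both, as 9.4% of all protein-coding genes did. With a -log10 q of at least 5, own peaks in both lists were left at Sox7 and Sox17 but not at Sox18, whose peaks in the library titled DOX were below it, and a peak within 1500 bp of a start in both lists was left at Sox7 only. Of the 7 surface protein and receptor genes, 0 had an own H3K27me3 peak in both lists (10.6% of all protein-coding genes, so that a count of 0 among 7 genes lies near the background), while 4 (Cdh5, Pecam1, Tie1 and Eng) had an own RUNX1 peak in both RUNX1 lists (39.7%). At the limit of 5 for -log10 q, Cdh5, Pecam1 and Eng were left. Tie1 was lost, since its peaks in the library labelled +DOX had 4.49 and 1.82. Counting own peaks found in both lists of an antibody, Sox7 and Sox17 carried RUNX1 and the mark, Sox18 the mark only, Cdh5, Pecam1, Tie1 and Eng RUNX1 only, and Tek, Emcn and Esam neither. Among all protein-coding genes the same classes held 4.52% (both), 6.09% (mark only), 35.1% (RUNX1 only) and 54.3% (neither). A peak in either list gave Tek to RUNX1 only and Emcn to the mark only, and left Esam alone without an own peak. By that rule the 4 classes held 2, 2, 5 and 1 of the 10 genes, and 9.79% (both), 6.85% (mark only), 43.1% (RUNX1 only) and 40.3% (neither) of all protein-coding genes. An own RUNX1 peak was present in 6 of the 10 genes (labelled -DOX) and in 7 (labelled +DOX), beside 44.3% and 48.2% of protein-coding genes. At the limit of 5 for -log10 q these counts were 6 and 5, and the shares of all genes were not recomputed there. An own H3K27me3 peak was present in 3 genes in the library titled untr and in 4 in the library titled DOX, beside 13.4% and 13.9%.

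**Figure D1:**
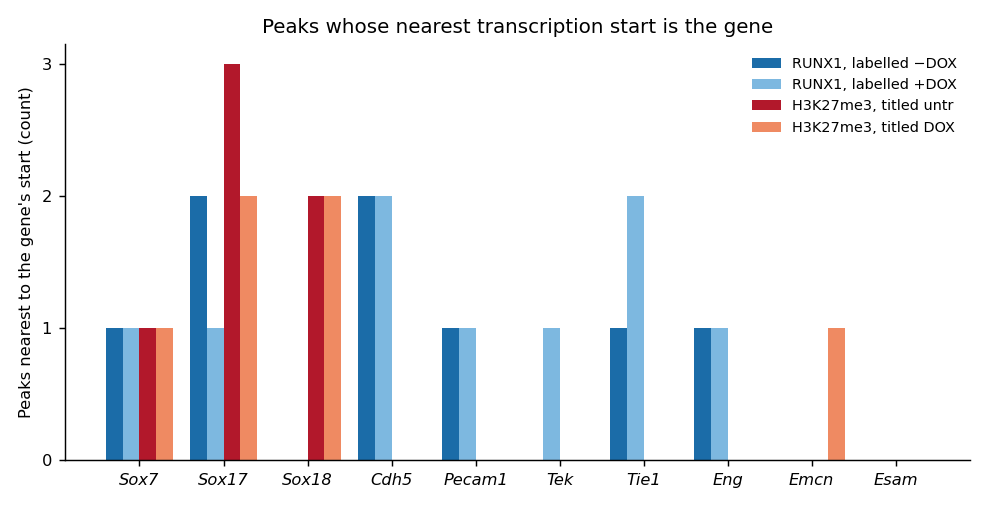
Count of peaks (vertical axis) whose nearest transcription start is each of the 10 genes (horizontal axis), 1 bar per library. Bars of the H3K27me3 libraries stand at Sox7, Sox17 and Sox18 in both lists and at Emcn in the library titled DOX only, and Esam has no bar.

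The wider window separated the genes less well. A RUNX1 summit lay in the gene body or within 50 kb in 8 of the 10 genes (labelled -DOX) and 9 (labelled +DOX), close to the 73.5% and 75.7% of all protein-coding genes. An H3K27me3 summit lay there in 6 genes in each library, against 33.2% (titled untr) and 35.3% (titled DOX). With either list counted, 6 of the genes had both kinds of peak in the window (35.7% of protein-coding genes), 3 had RUNX1 only (42.2%), 1 the mark only (4.23%) and 0 neither (17.8%). The windows of the 10 genes had a median of 127 kb, against 117 kb for all protein-coding genes, and held a median of 3 other protein-coding starts against 2. The summit closest inside the 50 kb limit lay 45353 bp from Pecam1, next to Cep95, at percentile 4.86. The closest outside lay 55935 bp from Sox7, next to Rp1l1, at percentile 24.7. Beyond the limit from Tie1, at 57244 bp and more, RUNX1 and H3K27me3 peaks lay next to Tmem125, up to percentile 98.3 in the library titled DOX at 58582 bp.

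**Figure D2:**
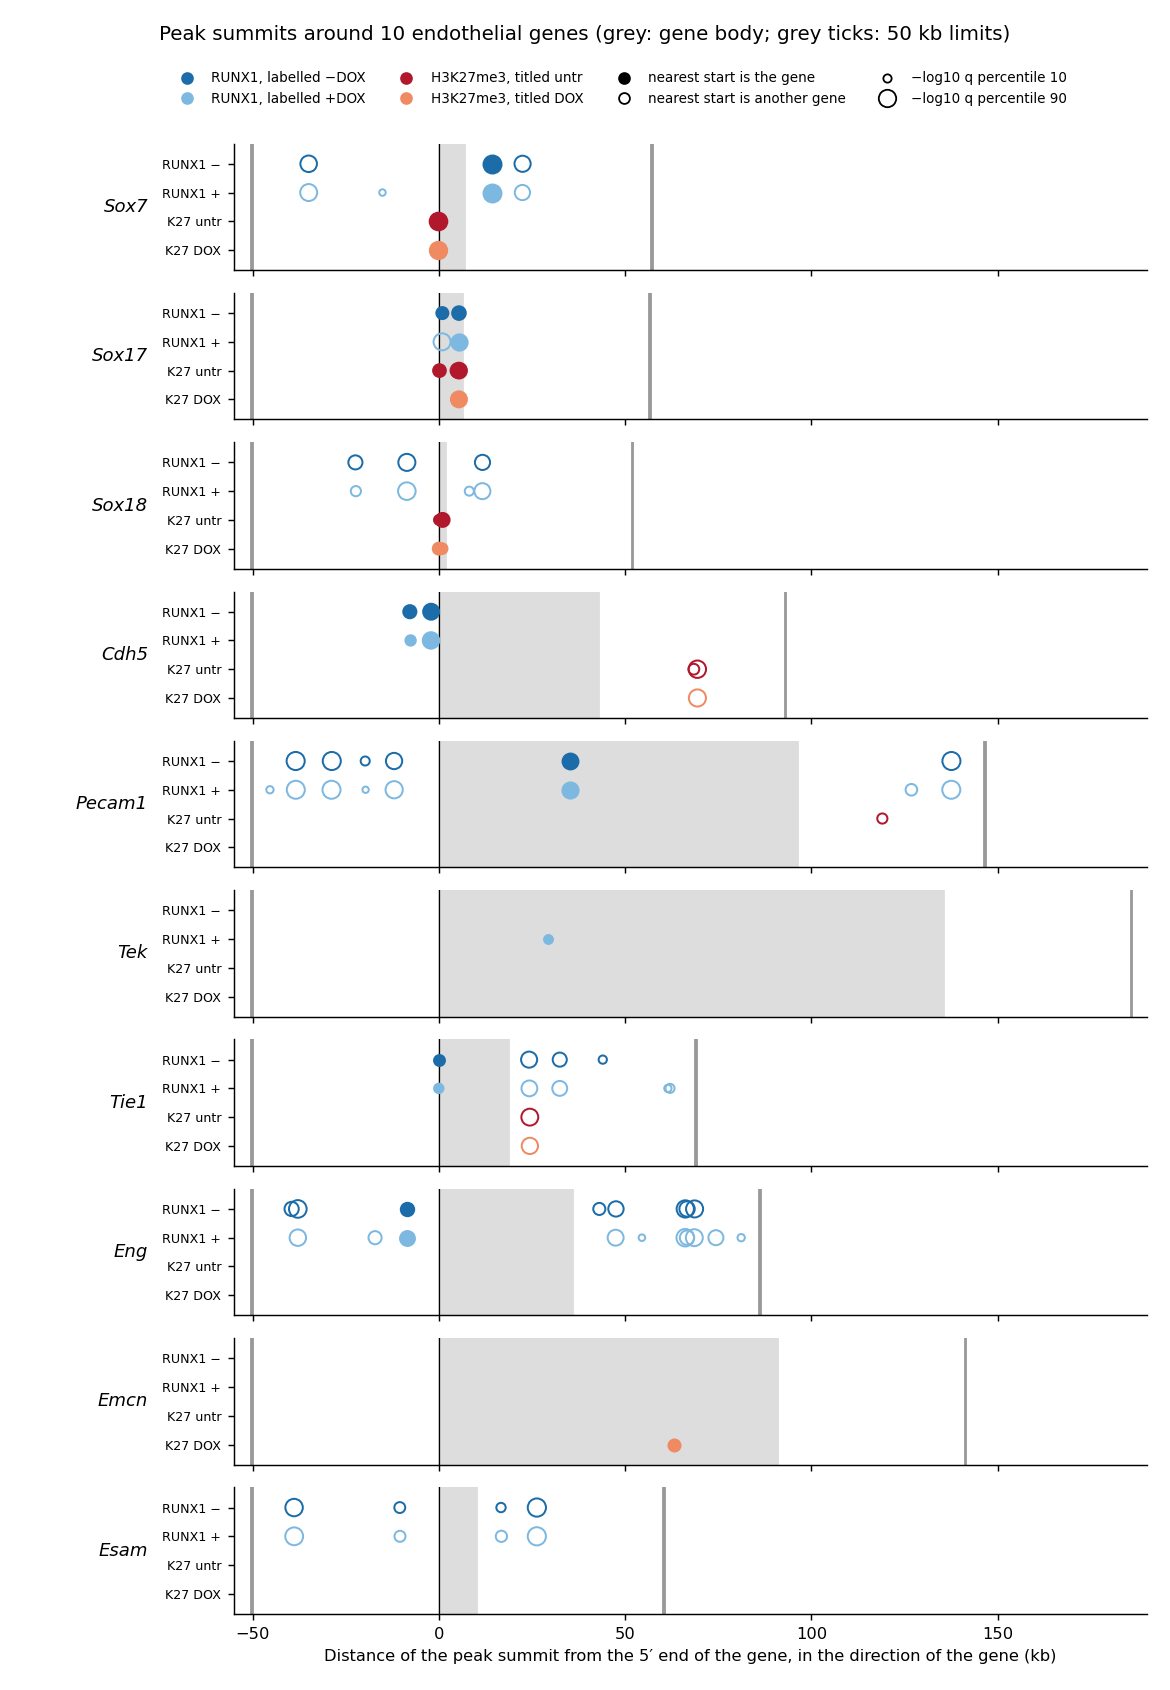
Position of each peak summit, in kb from the 5′ end of the gene in its own direction, in 4 rows per gene: RUNX1 labelled -DOX and +DOX (RUNX1 − and +) and H3K27me3 titled untr and DOX (K27 untr and DOX). The area of a circle grows with the percentile of -log10 q in its list, and filled circles mark peaks nearest to the gene's own start; filled H3K27me3 circles are found at the 3 SoxF genes and, in 1 list, in Emcn, and the open RUNX1 circles lie outside the gene bodies except for 1 in Sox17.

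Sox7, a SoxF gene on the plus strand of chromosome 14 from 63943673 to 63950732, had its own RUNX1 and H3K27me3 peaks at separate places. Its own RUNX1 peak lay in intergenic sequence downstream of the gene, with summits 14263 bp (labelled -DOX) and 14236 bp (labelled +DOX) from the start, 7204 and 7177 bp beyond the 3′ end. It had a fold of 10.96 and a -log10 q of 58.8 in the library labelled -DOX, at percentiles 94.9 and 97.1. In the library labelled +DOX the fold was 10.4 and the -log10 q 53.8, at percentiles 93.4 and 96.6. This was the strongest own RUNX1 peak of the 10 genes in both lists. The H3K27me3 peaks of Sox7 were called at the promoter instead, with summits 205 bp (titled untr) and 194 bp (titled DOX) upstream of the start. Neither RUNX1 list had a peak there. The 2 H3K27me3 peaks were 626 and 472 bp wide, with -log10 q of 22.6 and 14.2 at percentiles 92.6 and 89.0, the highest of the own H3K27me3 peaks. The other RUNX1 sites in the window were next to Pinx1, a telomerase inhibitor gene, and 4930578I06Rik.

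At Sox17, on the minus strand of chromosome 1 from 4490931 to 4497354, peaks of RUNX1 and of the mark were called at the same position. In its coding exon the RUNX1 summits at 4491960 (labelled -DOX) and 4492012 (labelled +DOX) and the H3K27me3 summits at 4491938 (titled untr) and 4491967 (titled DOX) all lay within 74 bp, and every RUNX1 summit was under a peak of both H3K27me3 lists. Of all merged RUNX1 sites, 5.85% lay under an H3K27me3 peak, and among the 9 own sites of the endothelial genes this was the only one. The -log10 q of this RUNX1 site was 8.23 in the library labelled -DOX (percentile 50.1) and 16.8 in the library labelled +DOX (percentile 77.2). The H3K27me3 peaks there had -log10 q of 9.56 and 8.36, at percentiles 71.6 and 74.1, and were 183 bp (titled untr) and 119 bp (titled DOX) wide. No input control is named, and the protocol given with the H3K27me3 libraries names a RUNX1 antibody. Whether RUNX1 and the mark are both present there was not tested. A further RUNX1 site lay at an internal start of Sox17, beside the start of the noncoding gene Gm37587 that overlaps it on the other strand. Its summits were 7 bp (labelled -DOX) and 79 bp (labelled +DOX) upstream of the Sox17 start, with -log10 q of 6.18 (percentile 35.9) and 23.0 (percentile 85.4). The second of these summits is nearest to Gm37587, so the 2 starts cannot be told apart as its target. The mark also had summits 1329 bp (titled untr) and 1108 bp (titled DOX) inside a Sox17 start and, in the library titled untr alone, 164 bp inside the first start.

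Sox18, on the minus strand of chromosome 2 from 181669836 to 181671640, carried the mark at its start and had no own RUNX1 peak. In the library titled untr the H3K27me3 summits lay 14 and 1009 bp inside the start, with -log10 q of 4.07 and 6.91 at percentiles 19.7 and 53.1. In the library titled DOX they lay 18 bp upstream and 868 bp inside, with -log10 q of 4.24 and 3.52 at percentiles 35.9 and 26.0. Both libraries thus marked the same short gene, with peaks in the lower or middle part of each list. The RUNX1 sites of its window were nearest to Tcea2, an elongation factor gene, Rgs19, a regulator of G protein signaling, and the small RNA gene Gm25879. The Tcea2 promoter peak had percentiles of 85.8 (labelled -DOX) and 92.0 (labelled +DOX).

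Cdh5 encodes VE-cadherin, the adhesion molecule of endothelial junctions, and lies on the plus strand of chromosome 8 from 104101625 to 104144511. It had 2 own RUNX1 sites upstream, both found in both lists and both in an intron of the antisense gene Gm29682. The nearer site had summits 2079 bp (labelled -DOX) and 2117 bp (labelled +DOX) before the start, with -log10 q of 14.6 and 17.98 at percentiles 73.2 and 79.1. The farther site had summits 7796 and 7590 bp before the start, with -log10 q of 7.58 and 5.14 at percentiles 45.5 and 23.5. The nearer site was thus the stronger in each list. The H3K27me3 peaks in the Cdh5 window lay next to Bean1, at least 58773 bp from any Cdh5 start.

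Pecam1 encodes the adhesion molecule CD31 and lies on the minus strand of chromosome 11 from 106654217 to 106750628. Its 1 own RUNX1 site was at an annotated start inside the gene, 35317 bp from the 5′ end, in an untranslated exon. The summits at 106715311 (labelled -DOX) and 106715310 (labelled +DOX) were 46 and 45 bp upstream of that start. The fold was 6.42 and 6.97 and the -log10 q 14.4 and 16.1, at percentiles 72.8 and 75.6, so the peak was alike in both lists. The strongest RUNX1 peaks of the window lay at the promoters of Ddx5, Polg2 and Tex2, at percentiles between 97.2 and 98.5. The only H3K27me3 peak of the window was 111 bp wide, in the library titled untr, nearest to Tex2 and 31754 bp from the closest Pecam1 start.

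Emcn, which encodes the surface sialoglycoprotein endomucin, and Esam, which encodes an adhesion molecule of endothelial junctions, had no own RUNX1 peak in either list. The Emcn window, on chromosome 3 around the gene at 137341067 to 137432185, held 0 RUNX1 peaks of either library, the only such window of the 10. Its single H3K27me3 peak was in the library titled DOX, 74 bp wide, in an intron 62934 bp from the nearest Emcn start, with a -log10 q of 4.24 (percentile 35.9). Esam lies on chromosome 9 from 37528078 to 37538319, and 4 RUNX1 peaks of each library fell in its window, all nearest to other genes. Among them was the strongest RUNX1 peak around any of the 10 genes, 1310 bp (labelled -DOX) and 1318 bp (labelled +DOX) upstream of the start of Siae, an esterase gene. Its fold was 19.0 and 17.4 and its -log10 q 146 and 116, at percentiles 99.6 and 99.5 of -log10 q. It lies 18138 and 18130 bp from the closest Esam start, and the rule of the nearest start does not say which gene it serves.

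Tek and Tie1 encode the angiopoietin receptor TIE2 and its partner receptor, and both lie on chromosome 4. Tek, from 94739289 to 94874976, had the longest window and 1 peak in it. This was a RUNX1 peak of the library labelled +DOX, in an intron 29075 bp from the nearest start, with a -log10 q of 4.15 at percentile 13.6. Tie1, on the minus strand from 118471191 to 118490061, had weak RUNX1 peaks at its start. In the library labelled -DOX the summit was 34 bp inside the start, with a -log10 q of 5.30 (percentile 27.1). In the library labelled +DOX there were 2 peaks, 28 bp upstream and 17 bp inside a start, with -log10 q of 4.49 (percentile 16.8) and 1.82 (percentile 0.0595). All peaks at the Tie1 start thus stood in the lower part of their lists.

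Eng encodes endoglin, a co-receptor for TGF-beta ligands, and lies on the plus strand of chromosome 2 from 32646595 to 32682669. Its 1 own RUNX1 site was intergenic, with summits 8471 bp (labelled -DOX) and 8441 bp (labelled +DOX) upstream of the start. The fold was 5.08 and 5.94 and the -log10 q 7.76 and 11.4, at percentiles 47.7 and 62.6. This window was the richest in RUNX1, with 8 and 10 peaks, but 7 and 9 of them lay nearest to other genes, among them Fpgs, Cdk9, St6galnac6 and Sh2d3c. It held 0 H3K27me3 peaks.

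**Figure D3:**
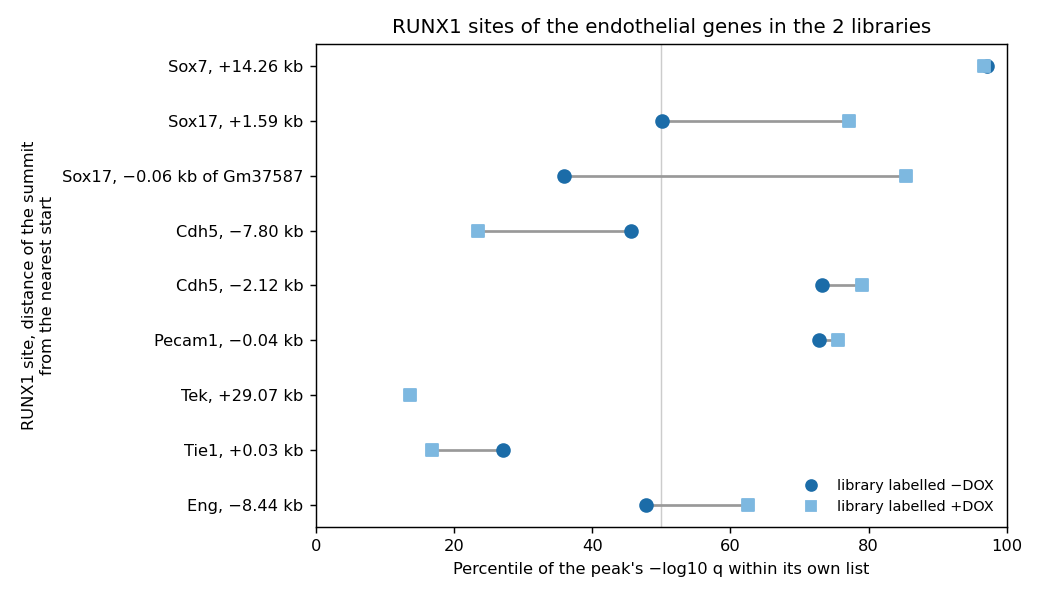
Percentile of -log10 q within its own list (horizontal axis, 0 to 100) of each of the 9 own RUNX1 sites (vertical axis, with the distance of the higher summit from the nearest start). Circles are the library labelled -DOX and squares the library labelled +DOX, joined where a site is in both; Sox7 lies above 96 in each, and both Sox17 sites lie farther right in the library labelled +DOX.

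Of the 9 own RUNX1 sites, 8 were found in both lists, 1 (Tek) in the +DOX list alone and 0 in the -DOX list alone. Of the 34 other sites in the windows, 21 were in both lists, 3 in the -DOX list alone and 10 in the +DOX list alone. Over the whole genome the shares in both lists, in the -DOX list alone and in the +DOX list alone were 56.8%, 14.8% and 28.4%. With the RUNX1 libraries exchanged, as the run names have it, the Tek site would be found only without DOX. Among the 8 own sites in both lists the percentile was higher in the library labelled +DOX at 5 and lower at 3, by -22.0 to 49.5 points. It was at least 25 points higher at 2 of the 8, and 15.1% of all sites in both lists were so; it was at least 25 points lower at 0, beside 7.91%. Both sites past this limit were those of Sox17, at 27.04 points in the coding exon and 49.5 points at the internal start. Of all sites in both lists, 13.4% and 2.70% had a larger rise than these. The farther Cdh5 site had the largest fall (-22.0 points), a value that rests on the 200 bp extension. The sites of Sox7 (-0.42) and Pecam1 (2.85) hardly moved. With 1 library for each label, none of these shifts can be set against the spread of repeated libraries.

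Short consensus words were counted at the own sites. Within 200 bp around the summit of the higher peak, the RUNX words TGTGGT or TGCGGT were found on either strand at 2 of the 9 own sites, those of Tek and the Sox17 coding exon, against 37.4% of all 24972 RUNX1 sites, a count near that share. The ETS words CAGGAA or CCGGAA were found at 7 of the 9, against 37.4% of all sites. The SOX word AACAAT was found at 2, Pecam1 and Tie1, against 4.79%. The AP-1 word TGACTCA, the GATA word AGATAA and the TEAD word GGAATG were found at 0 of the 9, against 4.97%, 11.7% and 8.64% of all sites; ETS and TEAD words can overlap. The GC content of the own sites had a median of 57.5% against 56.5%. Of the own sites 6 lay over 1500 bp from the nearest start, against 46.1% of all sites. Among all sites that far from a start, 48.8% held a RUNX word, 41.1% an ETS word and 7.24% a SOX word. For the AP-1, GATA and TEAD words these shares were 7.71%, 19.7% and 11.1%. In the sequences printed above, the ETS words of Sox7 begin 79 and 21 bp before the summit, those of Cdh5 24 and 32 bp after it, and that of Eng 56 bp after it. The RUNX words of Sox17 begin 16 bp before and 5 bp after the summit, in a GC-rich coding stretch (73.5% GC). The SOX word of Tie1 begins 82 bp after the summit, which itself lies outside the printed stretch. A word match is not a bound site, and a window without the word may hold another form of the motif.

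The pattern was compared with lists of other genes. Of 22 further endothelial genes, 10 had an own RUNX1 peak in both lists and 4 an own H3K27me3 peak in both lists, against 39.7% and 10.6% of all protein-coding genes. Egfl7, a secreted endothelial factor gene, had the most own RUNX1 peaks, 6 in each library, and Robo4 and Clec14a were among those with 0 in both. The 4 with the mark, named after their values were seen, were Cldn5, an endothelial claudin gene, Cd34, Rasip1 and Ace. Cldn5, Cd34 and Rasip1 also had RUNX1 in both lists, as Sox7 and Sox17 did, and Ace had the mark only, as Sox18 did. Of 16 Sox genes outside the SoxF group, 8 had the mark in both lists and 3 (Sox4, Sox6 and Sox12) had RUNX1 in both lists. Among the 3 SoxF genes these counts were 3 and 2. The lists are short and were not tested against each other.

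**Figure D4:**
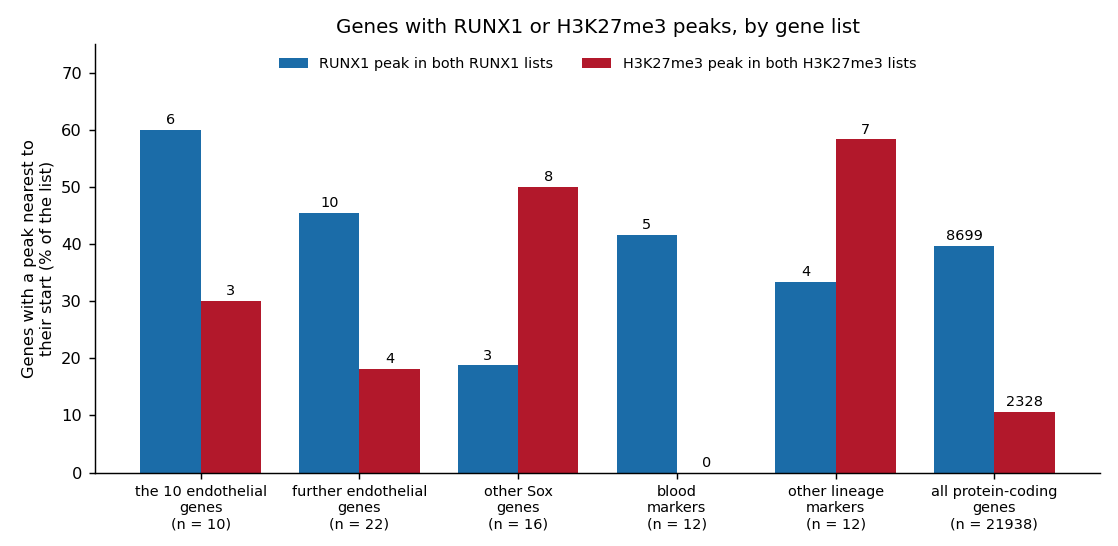
Share of each gene list (vertical axis, percent) with an own RUNX1 peak in both RUNX1 lists (blue) or an own H3K27me3 peak in both H3K27me3 lists (red), with the number of genes above each bar. The 10 endothelial genes stand at 6 and 3 genes, and the blood markers at 5 and 0.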

How the data were processed

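RUNX1 and H3K27me3 ChIP-seq peak lists were analysed, 1 library per list. According to the methods, RUNX1 reads were trimmed with Trimmomatic 0.39, aligned to mm10 with Bowtie2 2.3.5 and freed of duplicates with Picard 2.20.2. The submitters' processing notes name Bowtie2 2.2.9 and MACS2 2.1.1 for all libraries. RUNX1 peaks were called at a q-value threshold of 0.05, and no input control is named. How the H3K27me3 libraries were processed is not described beyond the notes, and the protocol given with them names a RUNX1 antibody. For each peak the authors deposited the fold enrichment, a ratio to the local background of the same library, -log10 p-values and -log10 q-values, and a score that restates the q-value and was not used.

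Only peaks on assembled chromosomes entered. Summits were assigned to gene bodies extended by 50 kb and to the nearest start of any GENCODE vM21 transcript, at any distance. RUNX1 summits were extended by 200 bp and merged. Percentiles are mid-ranks within a list. Motif words were searched on both strands of 200 bp of GRCm38.p6, the same assembly as mm10. Python 3.11.15, numpy 2.4.6, pandas 2.3.3 and matplotlib 3.10.9 were used. Planted site classes, window counts and motif words were all recovered, and nearest starts matched a direct search. The other steps were not checked in this way. The background of each count is the share of 21938 protein-coding genes, or of 24972 merged RUNX1 sites, that meets the same rule. With 1 library per condition no test was possible. The named genes were the 10 genes, the genes nearest to sites in their windows, and fixed lists of further endothelial, Sox, blood and other lineage genes. The genes and lists were chosen with earlier results of these data known. Peaks nearest to 1 neighbouring gene were counted but are not reported here.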

Additional observations from a re-analysis of the deposited data

How the results depend on the processing

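Of 104 counts recomputed under an alternative, 82 stayed within 1.5 times the value reported and 22 did not. No paired analysis was possible because each group had 1 library and the labels give no replicate numbers, and for the same reason no replicate could be left out. With a -log10 q of at least 5, the genes with an own H3K27me3 peak in the library titled DOX fell from 4 to 2 (Sox18 and Emcn were lost), and the RUNX1 sites in the +DOX list alone from 11 to 4. By window 0 genes then carried the mark only and 2 neither, and by own peaks 1 and 3. When every list was cut to its 5000 strongest peaks, own RUNX1 peaks were left in 2 genes (labelled -DOX) and 3 genes (labelled +DOX), RUNX1 alone was left in 1 gene by own peaks, and neither kind in 5 by own peaks and 1 by window. The RUNX1 sites in the windows then numbered 13 in both lists and 2 in the +DOX list alone. Recomputing the classes by own peaks under these alternatives was chosen after the lists were seen. A window of 10 kb gave 5 genes with RUNX1 only and one of 100 kb gave 1. Requiring both lists of an antibody, chosen after the lists were seen, gave 0 genes with the mark only and 2 with neither by window, and 1 and 3 by own peaks. Among all protein-coding genes these classes held 4.38% and 24.4% by window, and 6.09% and 54.3% by own peaks. For the other alternatives the shares of all genes were not recomputed, so those counts of genes have no background beside them. With the RUNX1 libraries exchanged, 11 sites came to the -DOX list alone and 3 to the +DOX list alone. With a motif window of 100 bp, 1 own site (Pecam1) held the SOX word, since that of Tie1 begins 82 bp after the summit. The shorter lists, the exchange, the other window sizes, the shorter motif window and the rule of both lists move the counts by construction. Why single peaks fell on one side of these limits was not tested. Leaving out the summits shared by RUNX1 and H3K27me3 peaks, merging with 100 bp, counting any overlapping peak, and using only protein-coding starts moved none of the counts by over 1.5 times. Depth is unknown, so a peak missing from a list may have missed its threshold only.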
